A study of Mus musculus with 9 samples.

Results

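The effect of a suboptimal embryo culture on the embryonic stem cells derived afterwards was examined by setting 3 mouse embryonic stem cell (mESC) lines from IVF embryos grown in Whitten's medium against 3 mESC lines from flushed blastocysts. These are 6 of the 9 lines of the study, chosen by their labels, and all 23410 transcript clusters with an annotated gene, of 35556 on the arrays, were compared. Each transcript cluster pools the probes of a gene, or of several genes too alike to separate. The mESCWM lines (WM1, WM2 and WM3) came from oocytes of hormone-stimulated females that were fertilized in vitro and cultured to blastocysts in Whitten's medium under 20% O2. Blastocysts flushed from the uterus of females that had received the same hormones and had mated naturally gave the mESCFB lines (FB1, FB2 and FB3). IVF embryos kept under 5% O2 in the richer medium KSOM with amino acids gave the remaining 3 lines, mESCKAA (KAA1, KAA2 and KAA3), whose values are set beside the others for orientation. All lines were C57BL/6 and labelled female. Each was grown from a single blastocyst on mouse fibroblast feeders in medium with serum, LIF and the 2i inhibitors under 20% O2, then moved to gelatin without feeders, and RNA was taken at the eighth passage. The IVF groups therefore differ from mESCFB in fertilization, medium and oxygen together, and these cannot be told apart. Each line was hybridized to 1 Affymetrix Mouse Gene 1.0 ST array, so a spread over 3 values is a spread between lines.

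Whitten's medium is a simple salt medium with glucose, pyruvate and lactate and without amino acids, and culture in it under atmospheric oxygen is a known stress for the preimplantation embryo. Embryos and stem cells answer such stress through a few well known programs. NRF2 (Nfe2l2) switches on enzymes that detoxify quinones and renew glutathione and NADPH, ATF4 answers a lack of amino acids, TXNIP restrains glucose uptake in step with the glucose supply, and SREBP factors switch on cholesterol synthesis. In mESC the FGF and ERK pathway drives the exit from the pluripotent state, and its own inhibitors, the Sprouty and Dusp proteins, are among its targets. The MEK inhibitor in the 2i medium blocks this pathway.

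The values are log2 levels, so a difference of 1 is a doubling. Each difference is mESCWM minus mESCFB, with its standard error (SE) from limma, fitted over all 9 lines with Benjamini-Hochberg adjustment over the 23410 clusters. Beside it stood the rank product, the test that the study's methods name, written anew here. An estimated share of false positives (pfp) below 0.05, a threshold set here, counted as a rise or a fall. Only clusters that passed one of these tests are said to have risen or fallen. Clusters whose 3 mESCWM lines all lie above, or all below, all 3 mESCFB lines are described as having no overlap, which is a description and not a test.

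The 6 lines had closely similar transcriptomes, with a Pearson's r across clusters of 0.9902 to 0.9940 within groups and 0.9896 to 0.9942 between groups. All were mESC by their markers, as Pou5f1, the core pluripotency factor, lay between 10.07 and 10.43 and Sox2 between 8.62 and 9.17. Transcripts that are made from the Y chromosome were not equal among the lines labelled female. Eif2s3y was at 4.78 in FB1, 5.19 in WM3 and 3.72 in KAA2, and between 1.77 and 2.20 in the other 6 lines, and Uty was highest in the same 3 lines, at 4.42 in WM3. Kdm5d, also Y-linked, did not follow them. It was at 2.04 in FB1 and WM3 and 1.96 in KAA2, and was highest in WM2 at 2.46. Xist, which is X-linked, lay between 2.53 in FB1 and 3.95 in FB2. X-linked genes, taken against autosomal genes, stood above their mean over the 9 lines by 0.29 in FB2 and 0.14 in FB3, and were at -0.05 in FB1 and between -0.09 and -0.01 in the mESCWM lines. The part of these line differences in the results was not tested. In bulk RNA, fewer cells of a type and less RNA per cell cannot be told apart.

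Few clusters differed between mESCWM and mESCFB. By the rank product 5 clusters rose (0.0214% of those tested) and 20 fell (0.0854%). Limma passed 0 of 23410 clusters (0.0%), with 1380 at an unadjusted p under 0.05 (2.73% higher and 3.17% lower), and its lowest adjusted p was 0.445 for Spry4. There was no overlap between the lines of the groups for 838 clusters that were higher in mESCWM (3.58%) and for 1066 that were lower (4.55%), so that 44.0% of the separated clusters were higher. This share depended on the scaling, as it was 28.5% after centring each array on its median (709 higher and 1783 lower) and 48.6% after quantile normalization (1210 and 1280). The calls also rested on single lines. The 20 falls became 4 without FB2, 1 without FB3, 11 without FB1 and 10 without either WM1 or WM2, and the 5 rises became 0 without WM1, 1 without WM2, 18 without FB1 and 48 without FB2. Over 5 random draws of the permutations the number of rises ranged from 0 to 5, whereas all 20 falls were called in each draw.

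**Figure D1:**
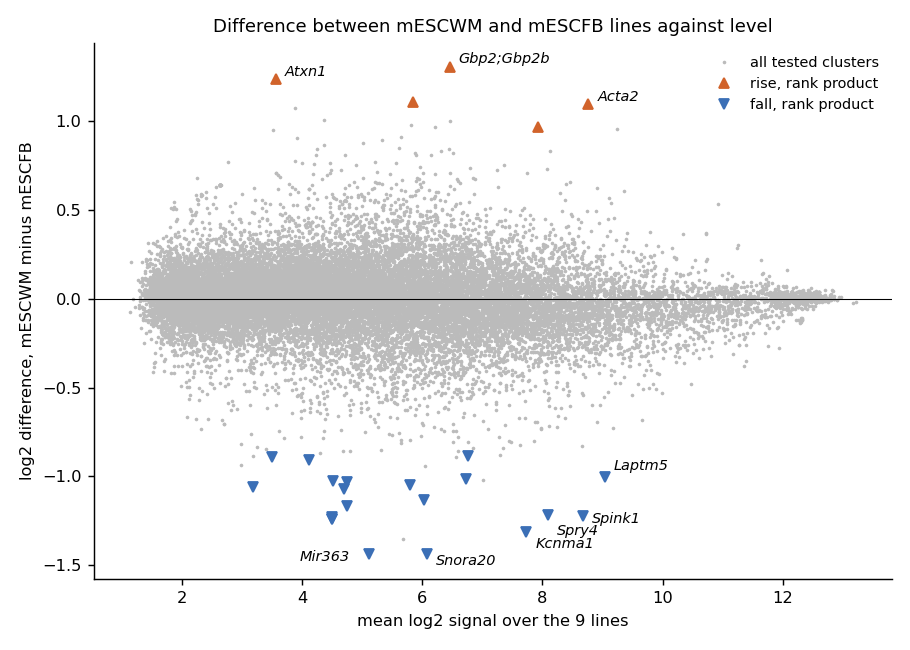
Log2 difference between mESCWM and mESCFB (vertical axis) against the mean log2 level over the 9 lines (horizontal axis) for the 23410 tested transcript clusters. Upward triangles are the 5 clusters that rose and downward triangles the 20 that fell by the rank product, and nearly all other clusters lie between -1 and 1.

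Spry4, a Sprouty protein that inhibits receptor tyrosine kinase signaling, was the gene with the clearest difference. It was at 8.55, 8.39 and 8.55 in FB1, FB2 and FB3 and at 6.98, 7.28 and 7.57 in WM1, WM2 and WM3. Every mESCWM line lay below every mESCFB line, and the mESCKAA lines, at 8.61, 8.35 and 8.48, stood with mESCFB. The fall was 1.22 on the log2 scale (SE 0.14), or 2.33-fold, with a pfp of 0.0033. When 1 line was left out, the call of Spry4 was lost without FB1 and without FB3, as it was when clusters without a gene were included, with differences of -1.37 to -1.07 over the 6 choices. The genes whose pattern over the 9 lines was most like that of Spry4 were Polr3d, a subunit of RNA polymerase III (r = 0.96), the splicing factor Prpf4 (r = 0.96), Cyb5d1 (r = 0.96), the ETS factor Etv2 (r = 0.95) and Eaf2 (r = 0.94). They were taken from all clusters for this likeness, and it is given as a description.

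Other genes of the ERK pathway differed less and not in common. Dusp6, the phosphatase that inactivates ERK, was at 9.08, 9.02 and 9.41 in FB1 to FB3 and at 8.60, 8.08 and 8.75 in WM1 to WM3. All 3 mESCWM lines lay below the mESCFB lines, with a difference of -0.70 (SE 0.23, adjusted p = 0.819). Etv1, an ETS factor downstream of ERK, also showed no overlap, with a difference of -0.32 (SE 0.18) that ran from -0.42 to -0.14 over the alternatives. In contrast, Etv5 was at 0.016 and Egr1 at 0.23 with overlapping lines. Of the 24 feedback regulators and targets measured, 14 were lower and 3 separated below mESCFB, where 4.55% of all clusters did, and the median difference was -0.03 against 0.0048 over all genes.

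The remaining falls fell into several kinds of transcript. Among genes of secreted and membrane proteins, Laptm5, a lysosomal membrane protein, was at 9.47, 9.54 and 9.52 in FB1 to FB3 and at 8.19, 8.73 and 8.60 in WM1 to WM3. It fell by 1.01 (SE 0.20, pfp 0.032), and the mESCKAA lines at 9.56, 8.93 and 8.81 lay between the groups or with mESCFB. Kcnma1, a calcium-activated potassium channel, fell by 1.31 in 1 of its 2 clusters, from 7.26, 8.48 and 9.21 to 7.14, 6.69 and 7.17. Its other cluster, between 2.43 and 2.72 in the 9 lines, differed by 0.017. Clmp, a cell adhesion protein, fell by 1.13 (SE 0.27) with no overlap. Reg2, of the regenerating islet family, fell by 1.24, but WM3 at 4.58 lay above FB2 at 4.47. Spink1, a protease inhibitor, fell by 1.22, and WM3 at 9.16 lay above FB3 at 8.92. Slc27a2, a fatty acid transporter, fell by 0.88 and Gstp3, a glutathione transferase, by 1.07, and in both the lines of the groups overlapped. Each kept its call in 1 of the 6 choices that leave out 1 line. The differences then ran from -1.25 to -0.61 for Slc27a2 and from -1.63 to -0.49 for Gstp3.

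Taf1a, a subunit of the factor that starts transcription by RNA polymerase I, was at 7.07, 7.21 and 7.10 in FB1 to FB3 and at 6.36, 5.71 and 6.25 in WM1 to WM3. The groups were apart, and Taf1a fell by 1.02 (SE 0.24, pfp 0.027). Izumo2, of a sperm protein family, fell by 1.03 (SE 0.19) with no overlap, and it was also among the 21 clusters with the smallest p in limma. The olfactory receptor Olfr1148 fell by 1.06 at a low level.

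Of the 20 falls, 7 were X-linked, while 3.80% of the tested clusters are. Besides Mir363 these were Nxf7, an RNA export factor (-1.23), Pnma5 (-1.03), Nudt10 (-0.91), the replication fork protein Radx (-0.89) and 2 clusters shared by Xlr5a, Xlr5b and Xlr5c. Radx lay between 3.76 and 4.17 in mESCFB and between 2.91 and 3.29 in mESCWM, so that its lines were apart. The Xlr5 clusters did not follow the groups. One of them was at 3.23, 8.18 and 5.77 in FB1, FB2 and FB3 and at 4.82, 5.44 and 3.40 in WM1, WM2 and WM3, with the highest value in FB2 and the lowest in FB1. Without FB2 its difference was 0.056 in place of -1.17. Over all 739 measured X-linked genes the median difference was -0.07, with 68 genes (9.20%) separated below mESCFB and 14 (1.89%) above, against 4.55% and 3.58% of all clusters. The median was -0.03 without FB2 and -0.21 with clusters from the median level upward.

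**Figure D2:**
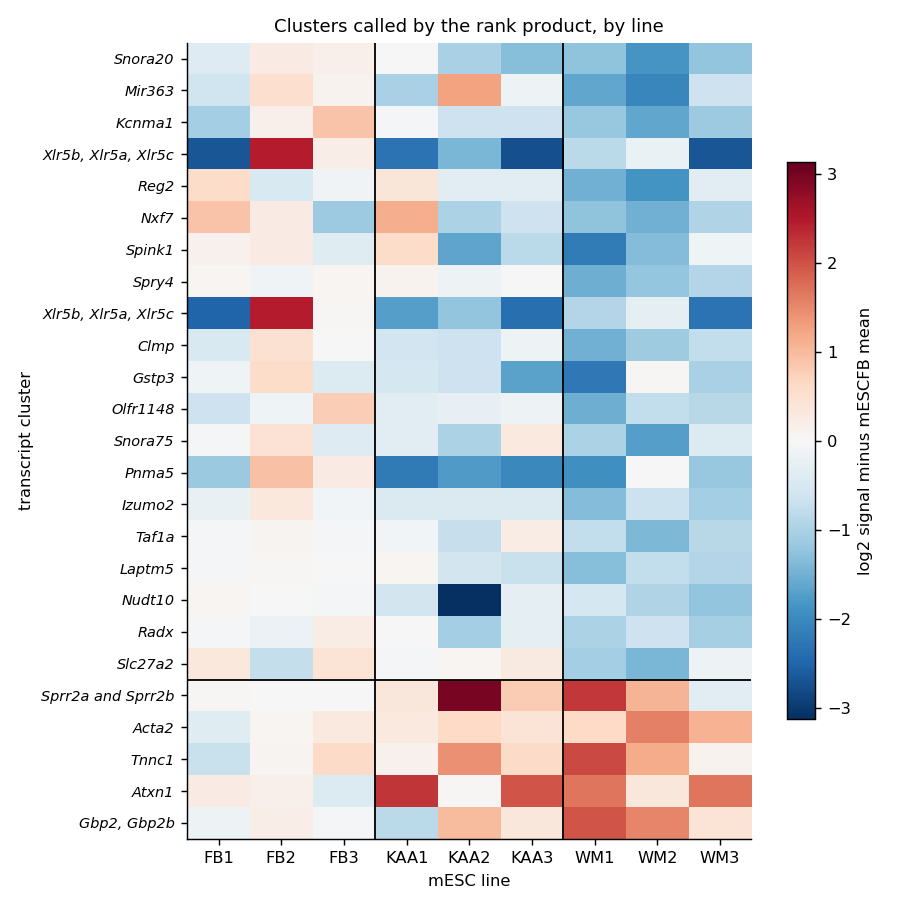
Level of each cluster called by the rank product in each line, as log2 signal minus the mean of the 3 mESCFB lines (colour), with lines in columns and clusters in rows, falls above the horizontal line and rises below it. Spry4, Laptm5 and Taf1a are low in all 3 mESCWM lines, whereas the Xlr5 clusters vary most among the mESCFB lines.

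Of the 20 falls, 12 showed no overlap between mESCWM and mESCFB, where 4.55% of all clusters were apart below. In 16 the mESCWM mean also lay below the mESCKAA mean, and in 8 every mESCWM line lay below every mESCKAA line. The falls were picked for low values in these same mESCWM lines, which favours low values against mESCKAA as well. These counts are therefore a description and no separate support for the falls.

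The rises were fewer and more uneven. Acta2, smooth muscle actin, was at 7.87, 8.31 and 8.56 in FB1 to FB3 and at 8.87, 9.82 and 9.34 in WM1 to WM3. The groups did not overlap, and the rise was 1.10 (SE 0.25, pfp 0.046), or 2.14-fold. A cluster shared by the interferon-induced GTPases Gbp2 and Gbp2b rose by 1.31 (SE 0.50, pfp 0.020), from 5.80, 6.17 and 5.92 to 7.94, 7.49 and 6.38. WM3 lay closest to mESCFB, and KAA2 reached 6.96. Atxn1, the ataxin gene, rose by 1.24 (SE 0.58) in 1 of its 2 clusters, to 4.34, 3.04 and 4.36, and KAA1 and KAA3 were higher still at 4.91 and 4.64. The other Atxn1 cluster differed by 0.032. Tnnc1, a troponin, rose by 1.11 but WM3 at 5.34 lay within mESCFB, and a cluster shared by Sprr2a and Sprr2b genes of the cornified envelope rose by 0.97 although WM3, at 6.77, was below all mESCFB lines. With 1000 permutations the rises were the shared cluster of Gbp2 and Atxn1 alone.

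Some large mean differences outside these calls came from single lines. Srgn, the secretory granule proteoglycan, differed by -1.36, but FB1 at 8.45 and KAA1 at 8.85 stood far above FB2 at 4.52, FB3 at 4.87 and the mESCWM lines at 3.82, 4.73 and 5.21. In 1 of its clusters Dnajc13, an endosomal protein, differed by 1.00 through WM3 at 8.84 alone, as WM1 was at 6.73, WM2 lower still and mESCFB between 6.15 and 6.34, while its other clusters differed by -0.29 to 0.67. Gpx2, a glutathione peroxidase, differed by -1.02, from 7.33, 8.08 and 7.30 to 5.65, 6.92 and 7.08, with an adjusted p of 0.819. All 3 mESCWM lines lay below mESCFB, but WM1 was by far the lowest and WM3 lay close to FB3. These 3 were named after their values were seen.

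Txnip, the arrestin that restrains glucose uptake, separated mESCWM from all other lines with a small spread. It was at 8.99, 8.85 and 9.08 in FB1 to FB3, at 8.38, 8.46 and 8.29 in WM1 to WM3, and at 9.07, 9.21 and 9.14 in KAA1 to KAA3. The 3 mESCWM lines were the lowest of the 9. The difference of -0.60 (SE 0.09), or 1.51-fold lower, was among the smallest by p in limma without passing (adjusted p = 0.474). The promoter of Txnip carries a well known pair of E-boxes that bind the glucose-responsive factor MondoA, and it is shown here because this element ties Txnip to the glucose supply. In the stretch of 120 bases at chr3:96557822-96557941 (RefSeq, GRCm38.p6, plus strand) the capitals mark a pair of CACGNG boxes with 5 bases between them.

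Txnip promoter: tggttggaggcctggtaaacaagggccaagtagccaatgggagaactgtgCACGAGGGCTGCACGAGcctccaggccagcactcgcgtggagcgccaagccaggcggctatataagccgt

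This paired motif, searched on both strands, is present in 16 of 32851 RefSeq promoters (0.0487%), each read from 250 bases before to 50 bases after the start. In the list of glucose genes only Txnip holds it. Arrdc4, the related arrestin that shares this control in other cells, was at 6.59, 6.36 and 6.50 in mESCFB and 6.13, 6.66 and 6.00 in mESCWM, with WM2 the highest of the 6. The glucose transporters Slc2a1 (0.28, SE 0.11) and Slc2a8 (0.36, SE 0.13) showed no overlap in the opposite direction, and Slc2a1 was at 11.24, 10.91 and 11.18 in mESCFB and 11.53, 11.41 and 11.25 in mESCWM. Slc2a3 differed by 0.36 (SE 0.25), with overlap. The 23 glucose genes as a list had a median of 0.0051 with 12 above 0, and enzymes such as Aldoa (-0.010), Tpi1 (-0.0052) and Pkm (-0.08) were close to 0. Neither were the hypoxia-induced genes shifted as a list (20 genes, median 0.03, 12 above 0). In each direction 1 of the 20 (5%) was apart, near the 3.58% of all clusters above mESCFB and 4.55% below. Adm, adrenomedullin, was higher without overlap, at 4.97, 4.89 and 4.52 against 4.02, 4.04 and 4.30, a difference of 0.68 (SE 0.20). Higd1a differed by -0.19 (SE 0.08), also without overlap. Vegfa, the angiogenic growth factor, was higher by 0.56 (SE 0.19), and WM3 and FB1 were equal at 6.09.

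Several NRF2 genes were lower in mESCWM, although no member passed limma or the rank product. Nqo1, the quinone reductase, was at 7.09, 6.82 and 7.16 in FB1 to FB3 and at 5.92, 6.35 and 6.22 in WM1 to WM3, with mESCKAA at 6.58, 6.38 and 6.84, of which KAA3 lay within mESCFB. The groups were apart, with a difference of -0.86 (SE 0.15, pfp 0.059), or 1.81-fold. Me1, malic enzyme, which makes NADPH, was at 7.67, 6.80 and 7.25 in mESCFB and at 6.74, 6.50 and 6.42 in mESCWM, a difference of -0.69 (SE 0.23), and another cluster named for Me1 gave -0.84 (SE 0.25). Blvrb, a biliverdin reductase, was lower by 0.54 (SE 0.11), at 8.14, 8.35 and 8.05 against 8.54, 8.92 and 8.71. Gclm of glutathione synthesis differed by -0.38, with -0.48 to -0.18 over the alternatives. Together with Gclm, glutathione reductase Gsr (-0.33), Pgd of the pentose phosphate pathway (-0.31) and thioredoxin reductase Txnrd1 (-0.22) completed the 7 of 27 measured members (25.9%) whose lines lay wholly below mESCFB. Over all clusters this share was 4.55%, and over genes at or above the median level 7.32%. In the other direction 0 of 27 were apart, where 3.58% of all clusters were. The median of the list was -0.10 against 0.0048 over all genes, 19 members were below 0, and it stayed below 0 in 14 of 14 alternatives. The lines did not separate by the list as a whole. Its median deviation from the mean over the 9 lines was -0.12, 0.04 and -0.09 in WM1, WM2 and WM3 and 0.07, 0.02 and 0.02 in FB1, FB2 and FB3, so that WM2 lay above FB2 and FB3. Not all members took part, as Nfe2l2 itself (0.038), the glutathione peroxidase Gpx4 (0.038) and catalase Cat (0.13) were above 0, and Hmox1, heme oxygenase, was at -0.48 (SE 0.19) with overlap at FB2 and WM3.

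NRF2 binds antioxidant response elements, whose letters are TGACNNNGC. The Me1 promoter is shown because it holds this element at the start site of a gene with one of the largest differences of the list. The 120 bases are chr9:86695912-86696031 on the minus strand (RefSeq, GRCm38.p6), with the match in capitals.

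Me1 promoter: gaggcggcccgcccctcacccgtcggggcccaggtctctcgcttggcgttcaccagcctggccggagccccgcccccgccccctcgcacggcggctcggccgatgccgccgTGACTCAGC

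Of 22 list genes with a RefSeq promoter, 8 held a match (Me1, Gclm, Pgd, Txnrd1, Srxn1, Sod1, Prdx1 and Nfe2l2), while 12.4% of all promoters of this length did. Of these 8, the first 4 were genes without overlap between the groups. A list gene counted if any of its promoters matched, whereas the 12.4% is by promoter, so they are not directly comparable. The list was also made up of NRF2 genes, so matches were likely from the start. The element often lies farther from the start site than this window, so genes without a match are not thereby set apart. In the wider family of glutathione transferases and peroxidases, which shares 8 genes with the NRF2 list, 3 of 38 were apart below mESCFB and 1 above, with a median of -0.08, and these counts are near the 4.55% and 3.58% of all clusters. This family was put together after values had been seen.

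**Figure D3:**
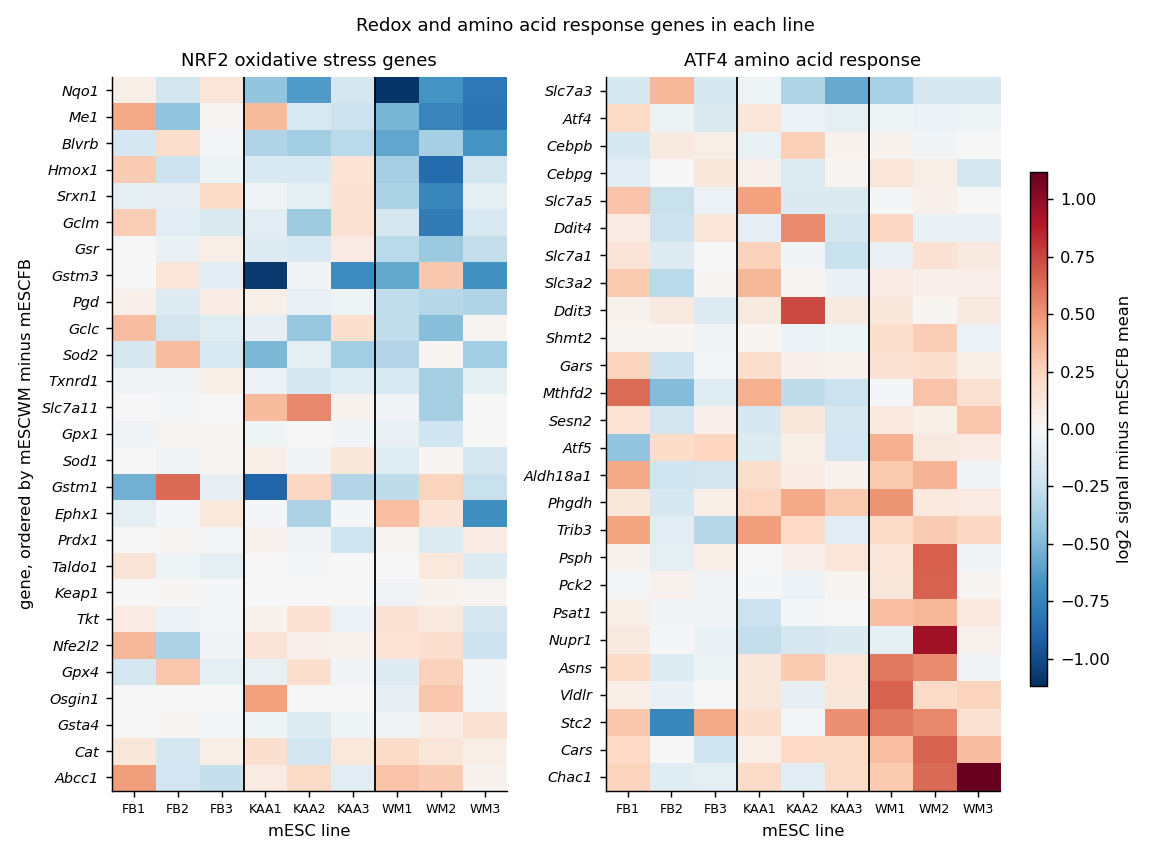
Level of the 27 measured NRF2 genes and the 26 measured ATF4 genes in each of the 9 lines, as log2 signal minus the mean of the 3 mESCFB lines (colour). Nqo1, Me1 and Blvrb at the top of the left panel are lower in all 3 mESCWM lines, and Chac1, Cars and Vldlr near the bottom of the right panel are higher in all 3.

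The ATF4 genes lay in the other direction, by smaller amounts. Of 26 measured, 24 were above 0, where 51.6% of all genes were, and the median was 0.18. Chac1, which degrades glutathione and is a strong ATF4 target, was at 6.83, 6.45 and 6.47 in FB1 to FB3 and at 6.87, 7.21 and 7.70 in WM1 to WM3. The lowest mESCWM line lay just above the highest mESCFB line, and the difference was 0.68 (SE 0.21, adjusted p = 0.819). Cars, the cysteinyl-tRNA synthetase (0.45, SE 0.13), Vldlr, a lipoprotein receptor (0.37, SE 0.13), and Psat1 of serine synthesis (0.27, SE 0.10) also showed no overlap. That makes 4 of 26 (15.4%) above mESCFB, against 3.58% of all clusters and 4.29% of genes at or above the median level, and 0 below. Asns, asparagine synthetase, was at 10.75, 10.38 and 10.48 in mESCFB and at 11.13, 11.07 and 10.51 in mESCWM, so that WM1 and WM2 were high and WM3 was not. Atf4 itself differed by -0.05 (SE 0.11) and Ddit3, a partner factor of the stress response, by 0.08. The list stayed above 0 in 14 of 14 alternatives, with 0.10 as its lowest median, found without WM2. By line, the median deviation of its members from their mean over the 9 lines was 0.07, 0.12 and -0.01 in WM1, WM2 and WM3 and 0.02, -0.21 and -0.10 in FB1, FB2 and FB3, so that FB1 lay above WM3.

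The Chac1 promoter is shown for its match to TGATGNAA, the core of the amino acid response element that ATF4 binds with a C/EBP partner. It lies on the opposite strand here, at chr2:119350999-119351118 (RefSeq, GRCm38.p6, plus strand), with the match in capitals.

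Chac1 promoter: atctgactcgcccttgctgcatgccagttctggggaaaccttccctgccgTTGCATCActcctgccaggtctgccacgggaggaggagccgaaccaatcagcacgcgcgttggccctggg

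Such a match was present in 7 of the 23 list genes with a promoter (Chac1, Vldlr, Asns, Nupr1, Pck2, Trib3 and Gars) and in 3.97% of all promoters. Here too the list is counted by gene and the share by promoter, and the list was made up of ATF4 genes. All 7 genes with a match had differences above 0, from 0.14 for Gars to 0.68 for Chac1, and 2 of them, Chac1 and Vldlr, showed no overlap. As 24 of the 26 list members were above 0, this does not set the genes with a match apart. The cytosolic aminoacyl-tRNA synthetases, put together after values had been seen and sharing Cars and Gars with the ATF4 list, had a median of 0.13, with 14 of 18 above 0. In 4 of them (22.2%, against 3.58% of all clusters), Cars, Iars, Mars1 and Tars, all mESCWM lines lay above mESCFB. The unfolded protein response, a neighbouring stress program, had a median of -0.01 over 19 genes, with 9 above 0.

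Cholesterol synthesis was higher in most members. Of 17 genes measured, 14 were above 0, where 51.6% of all genes were, with a median of 0.18. Fdft1, squalene synthase, was at 8.88, 8.86 and 8.85 in FB1 to FB3 and at 9.55, 9.52 and 9.13 in WM1 to WM3. The mESCFB lines lay within 0.1 of each other and all mESCWM lines above them, with a difference of 0.54 (SE 0.12, adjusted p = 0.685), and KAA1 to KAA3 were at 9.11, 9.29 and 9.08. Another cluster named for Fdft1 differed by 0.26 (SE 0.17), with overlap. Fdps, farnesyl diphosphate synthase, was higher by 0.45 (SE 0.16) and Sqle, squalene epoxidase, by 0.19 (SE 0.12), both without overlap. Hmgcs1, at the entry of the pathway, differed by 0.40 (SE 0.18), with WM3 at 8.15 below FB1 at 8.18. Sc5d, a late enzyme, went the other way without overlap, by -0.30 (SE 0.11). In all, 3 of 17 (17.6%) were apart above mESCFB and 1 (5.88%) below, against 3.58% and 4.55% of all clusters and 4.29% and 7.32% of genes at or above the median level.

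Contractile and smooth muscle genes had a median of 0.24, with 22 of 29 above 0. Acta2 and Tnnc1 of this list rose, but each was called in 2 of 5 random draws and not with 1000 permutations (pfp 0.053). Acta1, skeletal actin, was at 7.39, 7.88 and 8.09 in FB1 to FB3 and at 8.59, 8.44 and 8.84 in WM1 to WM3, apart by 0.83 (SE 0.20). Actc1, cardiac actin, differed by 0.82 (SE 0.26), with WM3 at 5.99 just below FB3 at 6.04. Myh10, a nonmuscle myosin (0.43), Vcl, vinculin (0.24), and Ankrd1 (0.24) brought the members without overlap to 5 of 29 (17.2%), all above mESCFB, where 3.58% of all clusters were. By line, the median deviation of the list was 0.28, -0.02 and 0.09 in WM1, WM2 and WM3 and -0.14, -0.09 and 0.01 in FB1, FB2 and FB3, so that WM2 lay below FB3. Srf, the factor that drives many of these genes, was at -0.18.

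Feeder fibroblasts express many of the same genes, so their markers were read beside them. Of 29 fibroblast markers, none of which is in the contractile list, 24 were above 0, with a median of 0.12. Vim, vimentin, was at 8.69, 9.01 and 9.02 in mESCFB and at 9.33, 9.82 and 9.28 in mESCWM, apart by 0.57 (SE 0.16). Bgn, biglycan, was at 5.03, 4.99 and 5.03 in FB1 to FB3 and at 6.28, 6.22 and 5.23 in WM1 to WM3, higher by 0.90 (SE 0.24), with WM3 near mESCFB. Without WM3 this cluster of Bgn was the 1 that limma passed. Loxl1 (0.18) and Timp2 (0.48) completed the 4 of 29 (13.8%) that were apart above mESCFB, where 3.58% of all clusters were, and 0 were apart below. Fibronectin Fn1 (0.73, SE 0.25) and Mmp2 (0.52, SE 0.18) were higher with overlap. Some other markers of the list were at low levels, where a difference can fail to show. Lum was between 1.69 and 1.95, Postn between 2.21 and 2.43 and Dcn between 2.91 and 3.52 in the 6 lines. These are at percentiles 4.32, 11.8 and 25.8 of all levels. Col3a1 was at 4.49, 4.34 and 4.62 in mESCFB and at 4.62, 4.62 and 4.63 in mESCWM. The median deviation of the list was -0.07 to -0.05 in mESCFB, 0.0083 to 0.10 in mESCWM and -0.009 to 0.06 in mESCKAA. The part of remaining feeder cells in these differences was not tested.

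**Figure D4:**
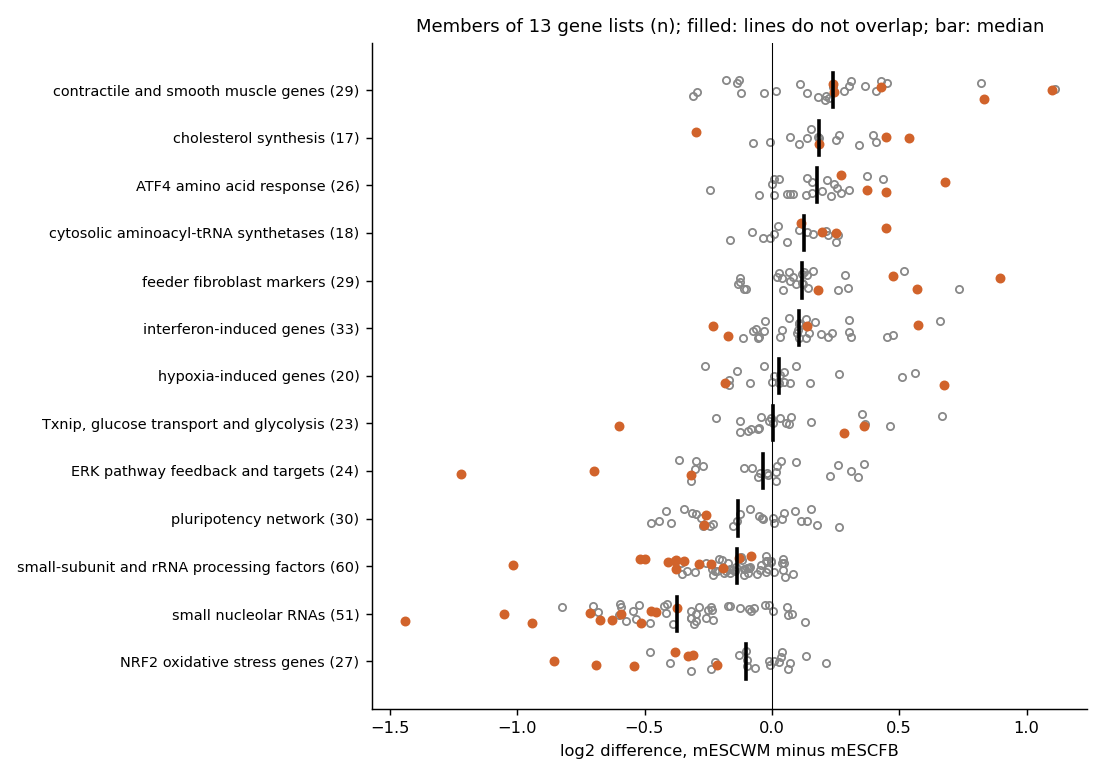
Log2 difference between mESCWM and mESCFB (horizontal axis) for each measured member of 13 gene lists, with the number of members in brackets. Filled points are genes whose lines do not overlap between the groups and black bars are medians, which run from -0.37 for small nucleolar RNAs to 0.24 for contractile genes.

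Mir363 belongs to an X-linked microRNA cluster with Mir106a, Mir20b, Mir19b-2 and Mir92-2, and it is relevant to mESC because its mature product shares its seed with that of Mir367 of the Mir302 cluster, which is expressed in pluripotent cells. The mature sequences are given from RefSeq, with the seed, bases 2 to 8, in capitals, to show which of the measured microRNAs share a seed.

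miR-363-3p: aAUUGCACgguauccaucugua
miR-92a-3p: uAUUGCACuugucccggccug
miR-367-3p: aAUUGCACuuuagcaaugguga
miR-20b-5p: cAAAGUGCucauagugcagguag
miR-106a-5p: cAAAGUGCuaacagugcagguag
miR-302b-3p: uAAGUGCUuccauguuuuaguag
miR-302d-3p: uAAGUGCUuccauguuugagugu
miR-302c-3p: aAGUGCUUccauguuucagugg

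miR-363-3p, encoded at chrX:52741697-52741718 on the minus strand (GRCm38.p6), thus has the same seed as miR-92a-3p and miR-367-3p. The clusters are named for the microRNA genes, so the values are not levels of the mature forms. Mir363 was at 4.94, 6.09 and 5.68 in FB1 to FB3 and at 3.94, 3.53 and 4.93 in WM1 to WM3, and fell by 1.44 (SE 0.58, pfp 0.0033), or 2.71-fold. The groups did not overlap, but WM3 lay just below FB1, and the mESCKAA lines spread from 4.56 to 6.83. Its neighbours did not all follow it. Mir20b differed by -0.71 (SE 0.38), while Mir106a (-0.13), Mir92-2 (-0.016) and Mir19b-2 (0.12) were close to 0, all at levels below 4. Of the Mir302 cluster, Mir302c was at 3.63, 3.83 and 3.60 in mESCFB and at 3.19, 2.82 and 2.40 in mESCWM, apart by -0.89 (SE 0.19, adjusted p = 0.668). Mir302b (-0.62), Mir302d (-0.49), Mir367 (-0.42) and Mir302a (-0.19) had differences below 0 with overlap.

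Clusters named for small nucleolar RNAs, which guide the chemical modification of ribosomal RNA, were mostly lower in mESCWM. The RNA was isolated with the RNeasy Mini Kit, and how evenly RNAs this short were recovered was not tested. Of 51 measured, 46 were below 0 and the median was -0.37, and 11 (21.6%) were apart below mESCFB, where 4.55% of all clusters were and 51.6% had differences above 0. Snora20 was at 6.42, 7.07 and 6.97 in FB1 to FB3 and at 5.56, 4.98 and 5.59 in WM1 to WM3. The groups were apart, Snora20 fell by 1.44 (SE 0.34), and the call was kept in 5 of the 6 choices that leave out 1 line. Snora75 fell by 1.05 (SE 0.40, pfp 0.046), with WM3 at 5.82 just below FB3 at 5.85. Snord33 was at 7.44, 7.52 and 7.73 in mESCFB and at 7.05, 6.90 and 6.86 in mESCWM, apart by -0.63 (SE 0.16). The abundant Snora73a, at 9.63 to 10.46 in mESCFB, was lower by 0.68 with overlap at WM3. By line, the median deviation of the 51 was -0.32 in WM1, -0.35 in WM2 and 0.03 in WM3, and 0.01, 0.29 and 0.17 in FB1, FB2 and FB3. WM3 was therefore above FB1, and the group difference rested on WM1 and WM2 and on FB2 and FB3.

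A list of proteins that process ribosomal RNA, with the RNA polymerase I factors Taf1a and Rrn3 among them, went the same way by smaller amounts. Of 60 measured, 53 were below 0, with a median of -0.14, and 13 (21.7%) were apart below mESCFB and 0 above, against 4.55% and 3.58% of all clusters and 7.32% and 4.29% of genes at or above the median level. By line, the median deviation was -0.15, -0.09 and 0.03 in WM1, WM2 and WM3 and 0.10, 0.02 and 0.04 in FB1, FB2 and FB3, so that WM3 lay above FB2. Pwp2, a core protein of the small-subunit processome, was at 7.27, 7.25 and 7.48 in FB1 to FB3 and at 6.76, 6.87 and 6.87 in WM1 to WM3, a difference of -0.50 (SE 0.09). Utp14a (-0.52), dyskerin Dkc1 (-0.35), Nob1, which makes the last cut of the small-subunit RNA (-0.29), and Rrn3, an initiation factor of RNA polymerase I (-0.38), were also apart. Taf1a, described above, is a member of this list. The list of processing factors and that of small nucleolar RNAs were drawn up after values had been seen, and they are a description of these lines. For comparison, the median difference over all genes from the median level upward was -0.010.

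Pluripotency genes differed little. Pou5f1 was at 10.43, 10.34 and 10.31 in mESCFB and at 10.07, 10.16 and 10.08 in mESCWM, apart by -0.26 (SE 0.08). Tdgf1, a Nodal coreceptor, was apart by -0.27 (SE 0.06), at 11.61, 11.63 and 11.59 against 11.93, 11.82 and 11.87. Nanog spread widely, from 9.02 to 10.10 in mESCFB and from 9.09 to 10.35 in mESCWM, and differed by 0.26 (SE 0.41). The 30 genes had a median of -0.13, with 20 below 0, and without WM1 the median was -0.03. Of the 30, 2 (6.67%) were apart below mESCFB, near the 4.55% of all clusters and 7.32% of genes at or above the median level. Dnmt3l, the cofactor of de novo DNA methylation, was at 9.68, 9.66 and 9.43 in mESCFB and at 8.38, 8.80 and 9.41 in mESCWM, lower by 0.73 (SE 0.29), with WM3 just below FB3. Dnmt3a (-0.28) and Dnmt3b (-0.31) overlapped.

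Of lineage markers, 13 of 18 primitive endoderm, 13 of 20 trophectoderm and 9 of 16 epiblast and ectoderm genes were below 0. Of 20 mesoderm genes 11 were above 0, as were 51.6% of all genes. Otx2, a factor of the primed epiblast, was apart by -0.79 (SE 0.27), at 5.13, 5.51 and 5.23 against 6.55, 5.81 and 5.90. It was the only epiblast and ectoderm gene apart (6.25%), and Sox7 the only primitive endoderm gene (5.56%), shares near the 4.55% of all clusters. Sox7 of the primitive endoderm was apart by -0.65 (SE 0.25), but Gata4 (-0.35) and Gata6 (-0.15) were high in FB1 alone among the 6 lines, at 6.38 and 6.34. Cdx2 (-0.13) and Eomes (-0.19) of the trophectoderm overlapped. Bmp4 was higher by 0.47 (SE 0.16), all 3 mESCWM lines being above mESCFB, and was the only one of 20 mesoderm genes apart, a share near the 3.58% of all clusters.

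Among genes with the smallest p in limma that belong to none of these programs, Ubxn8, a factor of protein degradation at the endoplasmic reticulum, was at 6.06, 6.04 and 5.95 in mESCFB and between 5.38 and 5.50 in mESCWM (-0.57, SE 0.08). The exonuclease Dclre1b (-0.58), the ubiquitin-like modifier Urm1 (-0.59), the phosphatase subunit Ppp2r5c (-0.48 in 1 of its clusters) and the selenoprotein Selenos (-0.44) were lower, each with no overlap. In the other direction, the clock-linked repressor Nfil3 was at 5.92, 5.69 and 5.92 against 6.50, 6.44 and 6.55 (0.66, SE 0.11), with mESCKAA between 5.54 and 5.90. Gsap was higher by 0.95 (SE 0.16), the phosphodiesterase Pde1b by 0.58 (SE 0.10) and Cpt2, which imports fatty acids into mitochondria, by 0.40 (SE 0.07). Akap5 (0.55) and Man1c1 (0.71) were higher in mESCWM and nearly as high in mESCKAA, which stood above mESCFB by 0.47 and 0.57. The adjusted p of all of these was 0.474, so none passed.

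**Figure D5:**
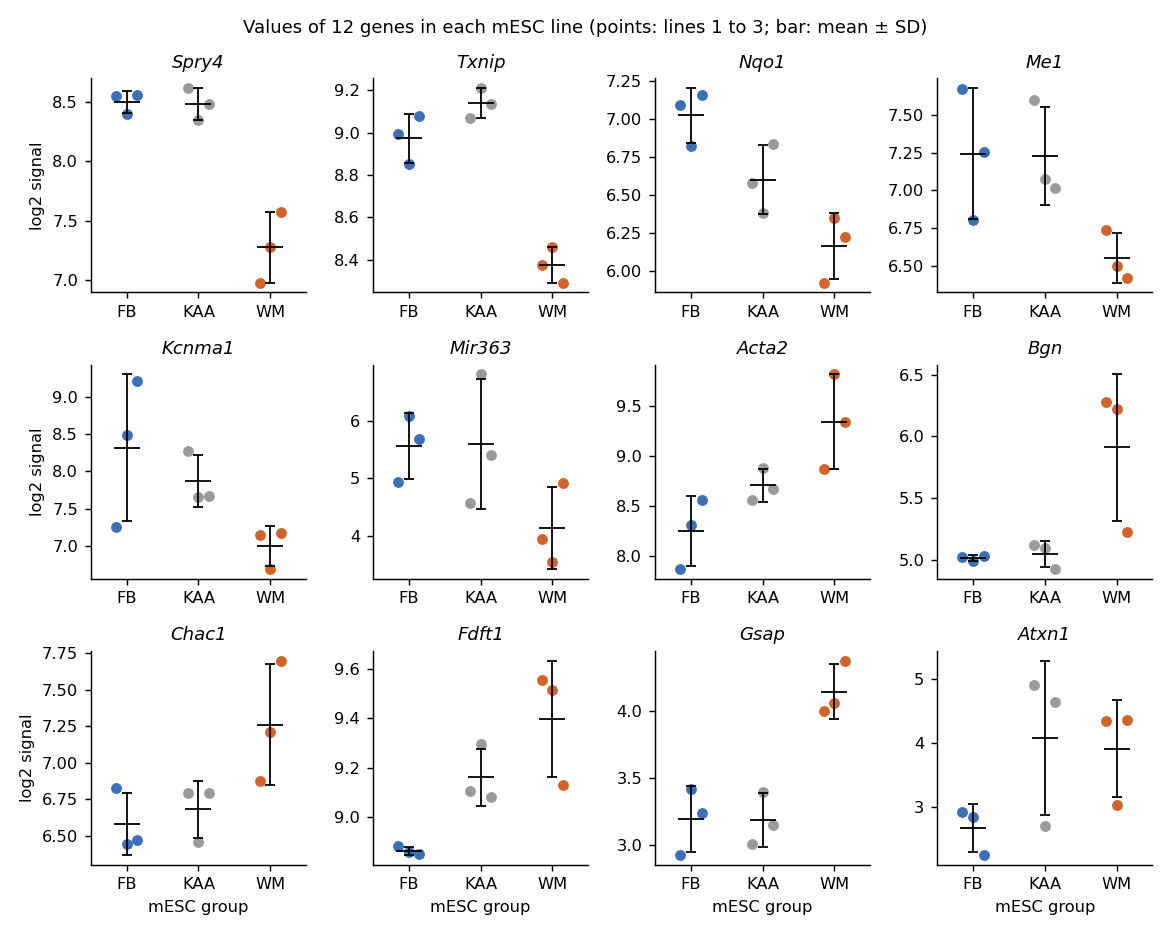
Log2 level of 12 genes in each line of mESCFB, mESCKAA and mESCWM. Points are lines and bars the mean with 1 SD of 3 lines; Spry4, Txnip and Gsap set mESCWM apart from both other groups, whereas Atxn1 is as high in 2 mESCKAA lines.

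Lists that describe ARF-dependent membrane traffic, translation initiation and mitochondrial respiration differed little. The 26 ARF regulators and COPI coat genes had a median of 0.06. In each direction 2 (7.69%) were apart, against 3.58% of all clusters above mESCFB and 4.55% below. Gbf1, an ARF exchange factor of the Golgi, differed by 0.12 (SE 0.12). Arfgef1, another exchange factor, differed by 0.25 (SE 0.21), Eif4a2 by 0.080, Cox18 by 0.16, and Mtif2 by 0.018, all with overlap. The chaperonin subunit Tcp1 differed by 0.037 (SE 0.06) with no overlap. The 45 initiation factors had a median of -0.016, and Eif1b was apart by -0.42 (SE 0.10). The 34 genes of the respiratory chain had a median of -0.05, with 6 (17.6%, against 7.32% of genes at or above the median level) apart below mESCFB by 0.03 to 0.17 and Cox7a1, a muscle form of a cytochrome oxidase subunit, apart above by 0.33. Zkscan3, a zinc finger repressor of autophagy genes, was at 4.46, 4.43 and 4.55 in FB1 to FB3 and at 5.06, 4.85 and 5.21 in WM1 to WM3, apart by 0.56 (SE 0.10, adjusted p = 0.474). Interferon-induced genes had a median of 0.11, with 24 of 33 above 0. Oasl2 (0.57, SE 0.16) and Rsad2 (0.14) were apart above mESCFB, and Irf7 and Ifit2 below, counts near the 3.58% and 4.55% of all clusters.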

How the data were processed

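Affymetrix Mouse Gene 1.0 ST arrays carried the RNA of 9 mESC lines (3 mESCFB, 3 mESCKAA and 3 mESCWM, grouped by their labels). The authors made the deposited log2 values by RMA in affylmGUI, and the submitters' notes name Affymetrix Expression Console and R 3.1.0. RMA corrects background, normalizes arrays to each other and summarizes probes, which can compress differences and removes a shift of all genes in a line. The levels ran from 0.56 to 13.3, and the number of arrays limits the precision. Clusters without a gene (12146) were left out. Of the 23410 tested, 21789 had 1 symbol and 1621 several, and symbols were checked against RefSeq by gene number (21698 matched). Limma 3.58.1 in R 4.3.3 was run on all 9 lines with 1 mean per group, and a difference passed at an adjusted p under 0.05. The rank product was written in numpy 2.4.6 on the 9 pairwise differences with 100 permutations within arrays. Both were tested on simulated data. Each gene of a list took its cluster of 1 symbol with the highest mean. The 33 lists and 5 added after values were seen carry no test. The members and lists were chosen with earlier results of these data known.

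Named were the genes the study lists for this comparison, all called clusters, the 20 clusters of 1 gene with the smallest limma p, up to 4 members per list with the smallest p and those without overlap, lineage and Y-linked markers, and other clusters or family members of these. Others were named after their values were seen. Alternatives were median centring, 6 lines in the fit, quantile normalization, autosomal clusters, all clusters, those from the median level upward, a single cluster per symbol, a replicate block, robust eBayes (statmod 1.5.0), other thresholds and leaving out each line. Added after seeing the data were other random draws, 1000 permutations and leaving out FB1 and WM3 together. Tables were handled with pandas 2.3.3 on Python 3.11.15, with scipy 1.17.1 and matplotlib 3.10.9. Each line came from 1 blastocyst and 1 array, so p-values measure the spread between lines.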

Additional observations from a re-analysis of the deposited data

How the results depend on the processing

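Limma called 0 clusters under every alternative except without WM3, where it called 1, and the range when leaving out 1 line was 0 to 1. The rank product's 5 rises became 14 with all transcript clusters, 3 with clusters from the median level upward, 8 with quantile normalization, 0 at a pfp under 0.01, 36 at a pfp under 0.1, 0 with limma in its place, 2 with 1000 permutations, 0, 1 and 2 in 3 of the other random draws, and 9 without FB1 and WM3. They ranged from 0 to 48 when 1 line was left out. The 20 falls became 12 with clusters from the median level upward, 13 with autosomal clusters, 3 at a pfp under 0.01, 36 at a pfp under 0.1, 0 with limma in its place and 13 without FB1 and WM3, and ranged from 1 to 27 when 1 line was left out. Clusters with no overlap were 1283 higher and 1625 lower with all transcript clusters, 474 higher with clusters from the median level upward, 1783 lower with median centring, and 3878 higher and 3768 lower without FB1 and WM3. When 1 line was left out they ranged from 1781 to 2333 (higher) and from 1708 to 2382 (lower), where fewer lines make separation easier. The replicate numbers do not pair the lines by the rule set for them, as deviations of same-numbered mESCFB and mESCWM lines correlated by 0.17, 0.23 and 0.028. With the replicate block, limma called 0 clusters and the rank product 2 rises and 25 falls. The Xlr5 cluster at -1.17 ranged from -2.42 (without FB1) to 0.056 (without FB2, where it reversed), and the cause was not tested. Of 38 lists, 21 kept the sign of their median under every alternative. Clusters at the low end of the signal can show no difference, since levels below background are compressed.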
